A study of Mus musculus with 3 samples.

Results

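Utf1 peaks were described at the genes of 4 transcription regulators of the naive pluripotent state, Klf2, Tbx3, Prdm14 and Tfcp2l1, in KH2 mouse embryonic stem cells. A peak was taken as a member when at least 1 bp of it lay within 20 kb of the gene body in the mm9 build. This gave 44 of the 152608 peaks listed after precipitation of biotin-tagged Utf1 and 2 of the 10506 peaks listed after precipitation of endogenous Utf1. The genes and the distance, not any measured value, chose the members. Gene bodies are given to the nearest 100 bp, so positions relative to a gene start carry that rounding.

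KH2 is an established embryonic stem cell line, and all samples were grown under the standard serum condition, in medium with 15% fetal bovine serum and leukemia inhibitory factor. The groups were a precipitation labelled with a biotin tag, a precipitation labelled endogenous and a whole-cell extract without antibody, each with 1 library. Only the peak lists of the 2 precipitations were analysed here. Chromatin immunoprecipitation with sequencing (ChIP-seq) recovers DNA bound by a protein after crosslinking, here for 5 min in 1% formaldehyde. How the tagged protein was introduced, and at what level it was made, was not stated, and both precipitations carry the same Utf1 antibody label although the protocol names streptavidin beads for the biotin one. The growth protocol describes irradiated CF1 mouse embryonic fibroblasts as a feeder layer, and whether feeder chromatin was carried over is not stated. Cell type markers cannot be read from peak lists.

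Embryonic stem cells are held in a naive state by a network of transcription factors that responds to leukemia inhibitory factor through Stat3 and is stabilised when the Mek and Gsk3 kinases are inhibited. Klf2 is a Krüppel-like zinc finger factor of this network, and Tbx3 is a T-box factor that sustains self-renewal. Prdm14 is a PR-domain zinc finger protein known for repressing fibroblast growth factor signalling and DNA methyltransferase genes. Tfcp2l1 is a factor of the CP2 family downstream of leukemia inhibitory factor and Stat3. Utf1, undifferentiated embryonic cell transcription factor 1, binds chromatin in pluripotent cells and is known to occupy many promoters, among them those of developmental genes.

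All 4 gene starts lay inside a biotin peak, and at each gene that peak had the most tags of the locus. Biotin peaks covered 9.93% of chromosome 8, 11.0% of chromosome 5 and 6.12% of chromosome 1. The share of all gene starts that lie in a biotin peak was not computed, so the count is no result about these genes. The sequence before the start is shown for Klf2 and Tfcp2l1, the 2 of 4 members with an entry in the RefSeq promoter table (GRCm38.p6), to show the base composition next to starts that those peaks cover. Each run holds the 250 bases before the annotated start, 5′ to 3′ on the plus strand, with CpG dinucleotides in capitals. In GRCm38.p6 the Klf2 run is chr8:72318812-72319061 and the Tfcp2l1 run is chr1:118627695-118627944, and these positions are not comparable with the mm9 positions of the peaks.
Klf2: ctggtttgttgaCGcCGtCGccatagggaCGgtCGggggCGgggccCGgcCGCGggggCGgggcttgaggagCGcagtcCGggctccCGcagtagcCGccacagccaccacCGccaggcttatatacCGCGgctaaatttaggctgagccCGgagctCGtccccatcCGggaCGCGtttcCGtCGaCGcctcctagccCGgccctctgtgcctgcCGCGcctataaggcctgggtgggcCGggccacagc
Tfcp2l1: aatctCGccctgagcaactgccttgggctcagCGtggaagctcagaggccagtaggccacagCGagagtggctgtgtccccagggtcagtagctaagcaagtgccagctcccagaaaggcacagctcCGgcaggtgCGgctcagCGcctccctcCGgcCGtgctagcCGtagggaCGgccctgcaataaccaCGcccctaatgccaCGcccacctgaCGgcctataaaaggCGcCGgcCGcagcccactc
The Klf2 run held 29 CpG dinucleotides and 71.2% G and C, with a CpG observed-to-expected ratio of 0.92. The Tfcp2l1 run held 16 CpG dinucleotides and 65.2% G and C, with a ratio of 0.61. Over 32851 promoter entries of the same length the median was 6 CpG dinucleotides (interquartile range 2 to 16) and 52.4% G and C. Fewer CpG dinucleotides than in Klf2 were found in 93.2% of the entries, and fewer than in Tfcp2l1 in 74.6%.

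Of 7 short motifs searched on both strands, the Klf2 run matched GGGCGG, the GC box, 2 times, and the Tfcp2l1 run matched TATAAA 1 time. GGGCGG was found in 32.7% of all entries and TATAAA in 12.4%. Neither run matched CCAAT (33.8% of entries), the E-box CACGTG (6.02%), the octamer ATGCAAAT (1.60%), TGACGTCA (1.55%) or TTCNNNGAA (7.02%). Other genes of the network were looked up in the same table by a fixed list, and 13 of 16 had an entry. Their CpG counts spanned a wide range, from 2 at an entry of Nanog, a homeobox factor of the pluripotency network, to 51 at Tet2, a DNA demethylating enzyme. Peaks at those genes were not analysed here, since no mm9 gene annotation was used.

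Before the loci are taken in turn, the lists differ in scale. A biotin peak had a median of 53 tags (interquartile range 34 to 108) and an endogenous peak 14 (13 to 16), where 13 was the smallest count listed and 40.4% of that list stood at it. The depth of the libraries is unknown, since tags are listed only inside peaks: 14128799 for biotin and 276084 for endogenous Utf1. Tags, width and fold enrichment are the authors' own values for each peak and are used here only within a list. Ranges after tag counts are exact Poisson intervals at 95% and cover counting error only. Since each group has 1 library, differences could not be set against replicates and nothing was tested.

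**Figure D1:**
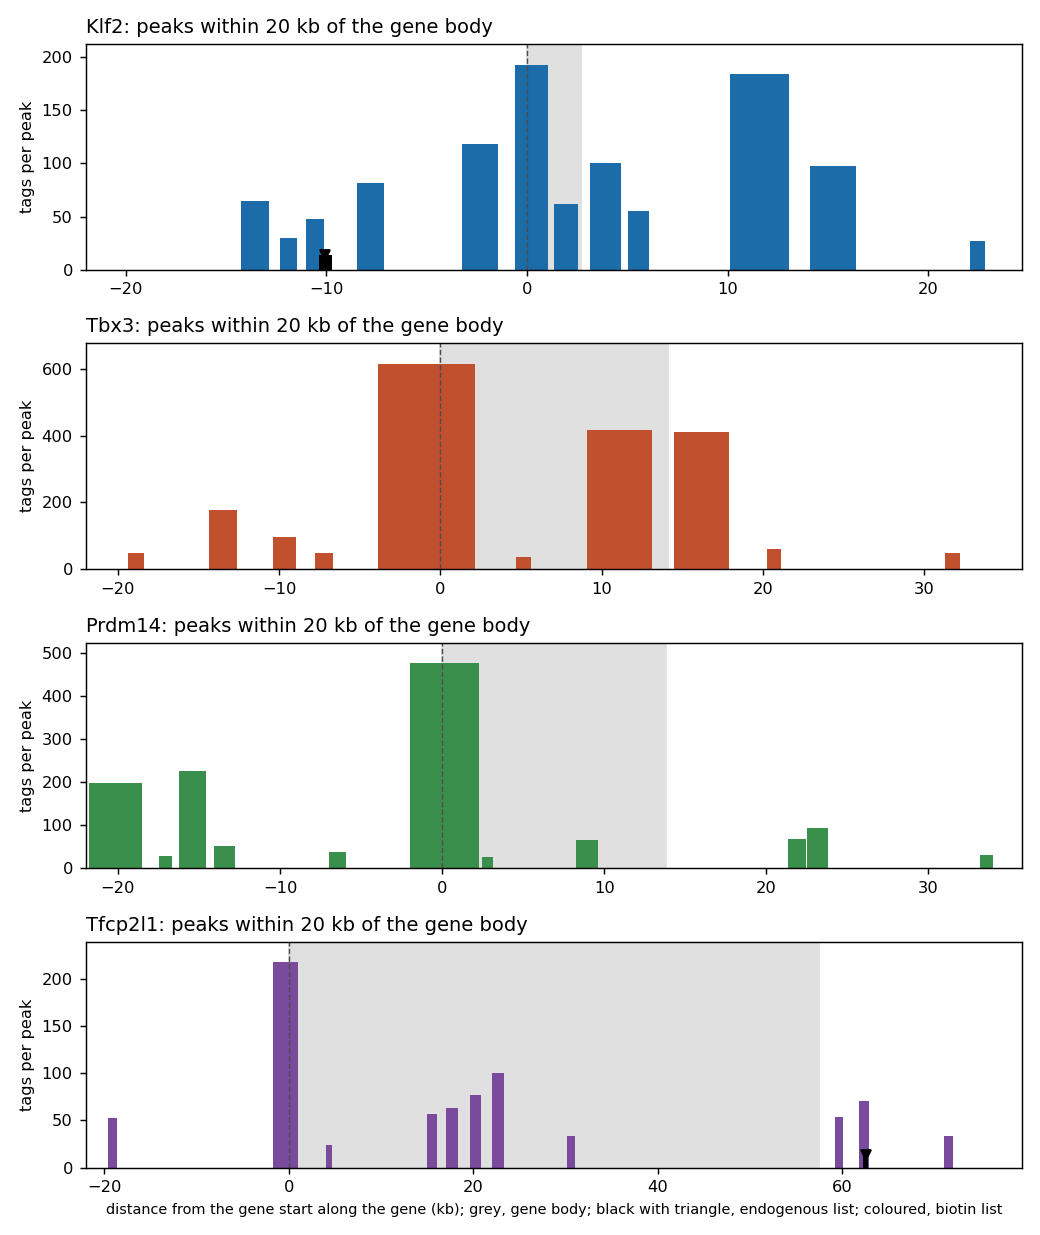
Peaks at the 4 loci by distance from the gene start along the gene (kb, x axis) and tags per peak (y axis, a separate scale for each gene). Each bar spans 1 peak, coloured for the biotin list and black with a triangle for the endogenous list, and the grey band is the gene body. The bar over the dashed gene start is the highest of each panel, from 193 tags at Klf2 to 615 at Tbx3.

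Tbx3 had the single peak with the most tags and the largest median fold of the 4 genes. Its gene body, chromosome 5, 120120600 to 120134700, and flanks held 10 biotin peaks with 1955 tags and no endogenous peak. The peak over the start, 120116744 to 120122768, was 6025 bp wide and had 615 tags (567 to 666) and a fold of 10.1. It reached 3856 bp before the start and 2168 bp into the gene, with its summit 0.242 kb inside. Of the biotin peaks on chromosome 5, 99.4% had fewer tags and 99.2% were narrower.

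At Tbx3, 2 further wide peaks lay at the far end of the gene. The peak at 120129694 to 120133733, inside the gene body, had 416 tags (377 to 458) over 4040 bp and a fold of 7.46. The peak at 120135114 to 120138478, just past the gene end, had 410 tags (371 to 452) over 3365 bp and a fold of 9.68. Their tag counts overlap within counting error, and both lie below that of the start peak. The largest fold of the locus, 10.8, belonged to a narrower peak 13.6 kb before the start, at 120106265 to 120107976, with 178 tags (153 to 206). The other 6 peaks had 35 to 97 tags. Peaks covered 50.2% of the gene body, 45.6% of the 20 kb before it and 25.7% of the 20 kb after it.

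Prdm14 had 11 biotin peaks with 1309 tags and no endogenous peak. The gene body is chromosome 1, 13103500 to 13117300, on the minus strand. Its start peak, 13115041 to 13119264, was 4224 bp wide with 477 tags (435 to 522) and a fold of 7.19, and 99.2% of biotin peaks on chromosome 1 had fewer tags. The summit lay 1.52 kb inside the gene, the farthest from the start among the 4 genes. The most enriched of the 44 peaks, with a fold of 12.3 and 227 tags (198 to 259), was 15.4 kb before the Prdm14 start at 13131841 to 13133524. Farther out lay a peak with 28 tags and then a peak of 3276 bp at 13135817 to 13139092. The latter had 198 tags (171 to 228) and crosses the 20 kb limit. Coverage was uneven around this gene, with 41.2% of the 20 kb before it, 31.4% of the body and 15.0% of the 20 kb after it. In the GRCm38.p6 annotation Ncoa2, which encodes a nuclear receptor coactivator, also lies within 20 kb of Prdm14, so peaks in the flanks cannot be assigned to Prdm14.

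Klf2 had the most peaks, with the smallest median gap between them, 0.869 kb. Its gene body, chromosome 8, 74842900 to 74845600, is the shortest of the 4, and the locus held 12 biotin peaks with 1062 tags. The start peak, 74842306 to 74843974, had 193 tags (167 to 222) over 1669 bp and a fold of 5.84, with its summit at the start within the rounding of 100 bp. Another peak, 74844258 to 74845457 with 62 tags, covered most of the rest, so that 84.2% of the gene body lay in peaks. The widest peak, 12.5 kb past the start at 74853046 to 74855981, had 184 tags (158 to 213) over 2936 bp. It was also the next in tags, and its count and that of the start peak overlap within counting error, whereas at the other genes the start peak exceeded the next in tags beyond counting error. In tags per kb the start peak stood higher, at 116, against 62.7 in the widest peak and a median of 47.3 over the biotin peaks of chromosome 8. The largest fold of the locus, 6.04, was at 74834455 to 74835758, 7.95 kb before the start, just above the upper quartile of folds on chromosome 8, 5.97. In the whole biotin list, whose upper quartile of fold is 6.03, it was the only Klf2 peak above that limit.

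Tfcp2l1 had the lowest coverage and 11 biotin peaks with 783 tags over the longest gene body, chromosome 1, 120524500 to 120582000. The start peak, 120522811 to 120525505, had 217 tags (189 to 248) over 2695 bp and was first of its locus in tags, width and fold, 8.65. Its summit lay 0.148 kb before the start. The next in tags had 100 (81.4 to 122). A group of 4 peaks lay 15.6 to 22.7 kb into the gene, with 57, 63, 77 and 100 tags and folds of 3.97 to 6.15. Beyond the last peak in the gene body, at 120554694 to 120555579, no peak was listed for 28.1 kb, up to 120583715, which leaves the far part of the gene without one. The largest such gap was 5.68 kb at Klf2, 10.2 kb at Tbx3 and 11.7 kb at Prdm14. Coverage of the Tfcp2l1 body was 13.0%, close to that of the flanks, 13.7% before and 14.5% after.

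Set side by side, the 4 start peaks were among the members with the most tags and the largest widths. Their tags ran from 193 to 615, and those of the other 40 peaks from 24 to 416, with a median of 61. Start peaks were 1669 to 6025 bp wide, and the others 593 to 4040 bp, with a median of 1122.5 bp. The groups overlap in tags through the 2 wide Tbx3 peaks and 2 upstream Prdm14 peaks, and in width also through 3 Klf2 peaks and the narrower Tbx3 peak before the start. Folds overlapped more, 5.84 to 10.1 at the starts and 2.25 to 12.3 elsewhere, and only at Tfcp2l1 did the start peak have the largest fold of its locus. The start peak held 18.2% of the locus tags at Klf2, 31.5% at Tbx3, 36.4% at Prdm14 and 27.7% at Tfcp2l1. Tag density was 116, 102, 113 and 80.5 tags per kb in the same order, above 94.9, 92.6, 94.0 and 83.5% of the biotin peaks on the chromosome. Picking a peak because it covers a fixed position favours wide peaks, which tend to hold more tags. Part of the contrast with the other 40 peaks is therefore built in. Whether start peaks of other genes are alike was not tested, since no other gene starts were placed in mm9.

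**Figure D2:**
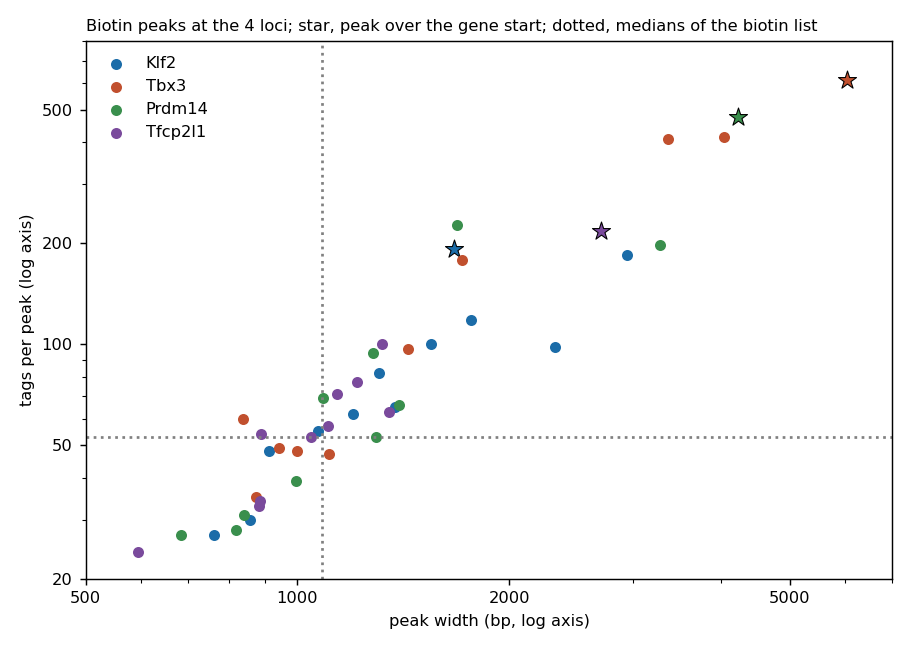
Width (bp) and tags of the 44 biotin peaks, both on log axes, coloured by gene, with a star for the peak over each gene start. Dotted lines are the medians of the biotin list, 1085 bp and 53 tags. The stars lie to the upper right, from 193 to 615 tags, with 2 further Tbx3 peaks between 410 and 416.

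Counted one by one, the members exceeded the upper quartiles of the biotin list about as often as all biotin peaks did. Above the upper quartile of the list in tags (over 108) were 11 of 44 members, 25.0% (exact Clopper-Pearson interval 13.2 to 40.3), against 24.9% of all biotin peaks. In width (over 1599 bp) there were 12 of 44, 27.3% (15.0 to 42.8), against 25.0%. In fold (over 6.03) there were also 12 of 44, against 24.7%. These shares are near the background and are no result about the members. The intervals count each peak as independent, although peaks of a locus are neighbours in 1 library, so they describe the count only. By fold, 5 of the 12 were at Tbx3, 4 at Prdm14, 2 at Tfcp2l1 and 1 at Klf2.

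Median values by locus were at or moderately above those of the chromosome. The median width was 1339 bp at Klf2, 1272 at Tbx3, 1282 at Prdm14 and 1106 at Tfcp2l1, where the chromosomes had 1102, 1104, 1047 and 1047 bp. Median tags were 73.5, 78.5, 66 and 57 in the same order, against 55, 54, 51 and 51. The ratios were 1.12 to 1.45 in tags and 1.06 to 1.22 in width, over 10 to 12 peaks a locus. Median folds were 4.67, 6.55, 4.48 and 4.18, against 4.24 on chromosome 8 and 4.14 on chromosomes 5 and 1. Only at Tbx3 did the median fold exceed the upper quartile of its chromosome, 6.03.

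All 4 loci had more sequence in peaks than most of their chromosome. Each locus, the gene body with 20 kb to either side, was set beside windows of the same length laid end to end along its chromosome. The windows were laid without regard to genes, and 68.9, 76.2, 70.0 and 83.2% held a biotin peak for Klf2, Tbx3, Prdm14 and Tfcp2l1. Whether windows around other genes rank alike was not tested. At Klf2, 41.1% of 42.7 kb was covered, against a median of 3.57% over 3010 windows of chromosome 8 (interquartile range 0 to 12.0), and 93.7% of windows had less. At Tbx3, 39.4% of 54.1 kb was covered, against a median of 4.20% over 2761 windows of chromosome 5 (1.23 to 14.3), and 92.3% had less.

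On chromosome 1, Prdm14 stood higher among its windows than Tfcp2l1. At Prdm14, 29.0% of 53.8 kb was covered, against a median of 2.63% over 3607 windows (0 to 6.86), and 95.8% had less. At Tfcp2l1, 13.5% of 97.5 kb was covered, against a median of 2.71% over 1989 windows (0.936 to 6.85), and 86.7% had less. All 4 loci thus lay above the upper quartile of their windows, and all but Tfcp2l1 above the 90th percentile, which was 29.7, 33.5, 17.4 and 17.1% for the windows of Klf2, Tbx3, Prdm14 and Tfcp2l1. None was at the extreme: 191, 213, 153 and 265 windows in the same order had more coverage.

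**Figure D3:**
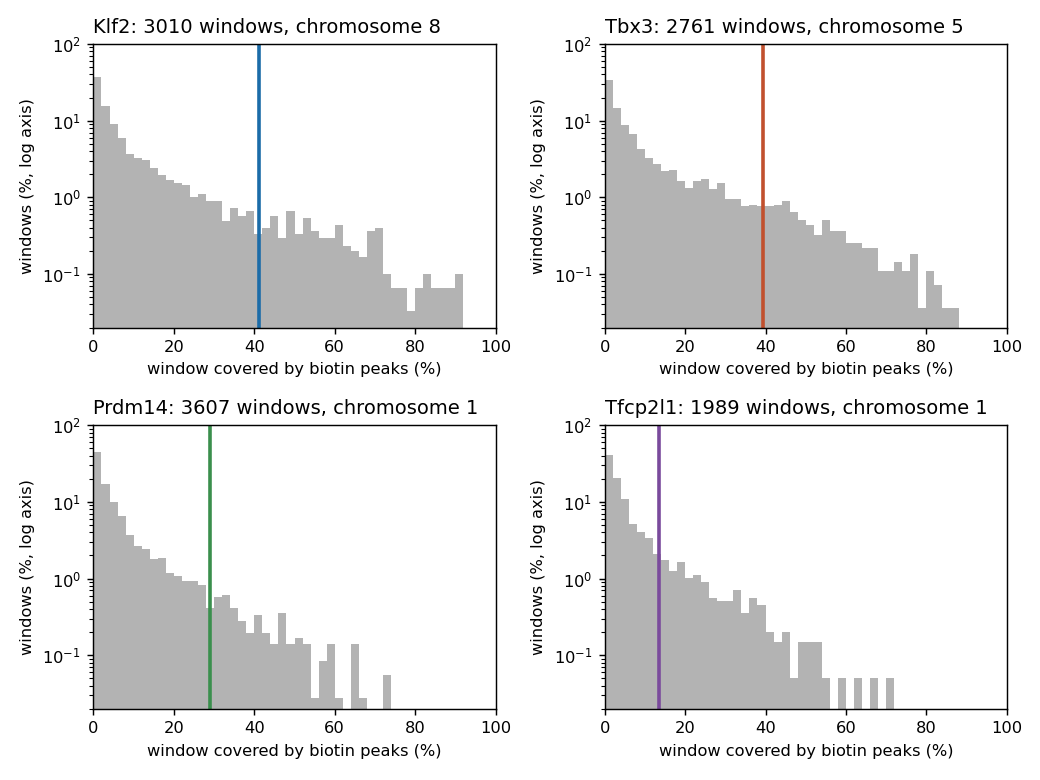
Share of same-length windows (%, log axis) by the percent of the window covered by biotin peaks (bins of 2%), for each gene's chromosome. The coloured line marks the locus, at 41.1% for Klf2, 39.4% for Tbx3, 29.0% for Prdm14 and 13.5% for Tfcp2l1, each to the right of most windows.

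Summed tags placed the loci in a different order, each among the windows of its own chromosome. Prdm14 with 1309 tags exceeded 97.2% of its windows and Tbx3 with 1955 exceeded 96.6%, while Klf2 with 1062 exceeded 91.8% and Tfcp2l1 with 783 exceeded 85.2%. Klf2 was therefore nearer the top by coverage than by tags, and Tbx3 and Prdm14 nearer by tags. The order across loci depended on the windows used. Among windows on all autosomes, Tbx3 came first by tags with 97.6%, before Prdm14 (94.1%), Klf2 (94.0%) and Tfcp2l1 (77.9%). By coverage among the same windows, Klf2 came first with 95.6%, before Tbx3 (95.3%), Prdm14 (91.6%) and Tfcp2l1 (79.7%). By number of peaks, Klf2 exceeded 94.5% of its windows, Prdm14 94.9%, Tfcp2l1 86.4% and Tbx3 82.5%. Tbx3 thus ranked higher by tags than by number of peaks, and Klf2 the reverse. The single peak with the most tags was above that of 98.1% of windows at Prdm14 and 97.5% at Tbx3, but of 77.8% at Klf2 and 77.3% at Tfcp2l1.

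The surroundings of the loci differed. Tbx3 lies in a stretch of chromosome 5 where windows within 5 Mb had a median coverage of 28.2%, and only 67.4% of those had less than the locus. The median within 5 Mb was 4.14% at Klf2, 2.50% at Prdm14 and 1.98% at Tfcp2l1, near the chromosome medians. None of the 184 windows within 5 Mb of Prdm14 had as much coverage as the locus. The windows directly beside each locus were also covered above the chromosome median: 29.0 and 18.7% at Klf2, 29.6 and 28.8% at Tbx3, 12.3 and 22.7% at Prdm14, and 9.05 and 16.3% at Tfcp2l1. At Tfcp2l1 the window on the side of higher coordinates, with 827 tags and 12 peaks, exceeded the locus itself.

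In 10 kb bins reaching 250 kb to either side, neither bin beside the gene start was the most covered of its region. The bin that begins at the start had rank 3 of 50 at Klf2 with 48.9%, rank 5 at Prdm14 with 43.4%, rank 10 at Tbx3 with 39.5% and rank 22 at Tfcp2l1 with 16.0%. In the same order, the bin that ends at the start had ranks 7, 9, 3 and 20, with 36.6, 29.6, 60.1 and 16.9%. The side before the start was thus the more covered at Tbx3 and, by a small margin, at Tfcp2l1. The most covered bin lay 40 to 50 kb before the start at Klf2 (54.0%), 20 to 30 kb before it at Prdm14 (56.8%), and 160 to 170 kb past it at Tbx3 (81.0%). At Tfcp2l1 it lay 210 to 220 kb past the start (58.2%). Which genes lie in those bins was not analysed here.

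**Figure D4:**
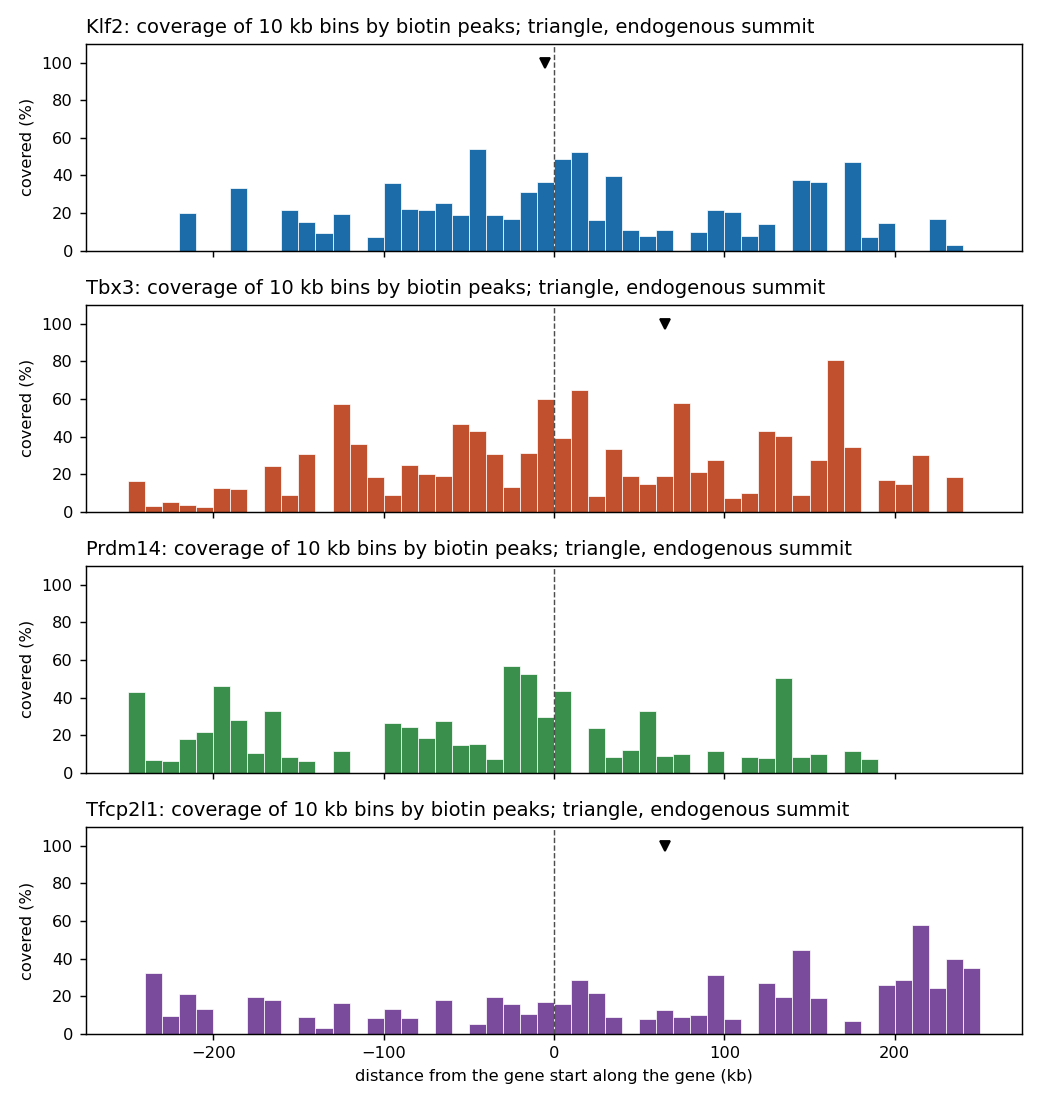
Percent of each 10 kb bin covered by biotin peaks (y axis) by distance from the gene start along the gene (kb, x axis), with a triangle over bins that hold an endogenous summit. The dashed line is the gene start, after which the first bin reached 48.9% at Klf2 and 16.0% at Tfcp2l1, with higher bins elsewhere in each region.

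Endogenous peaks were few at these loci, with 1 each at Klf2 and Tfcp2l1 and 0 at Tbx3 and Prdm14. At Klf2 the only one, 74832549 to 74833160, lay 9.74 kb from the gene on the upstream side and had 14 tags (7.65 to 23.5) and a fold of 1.76. At Tfcp2l1 the only one, 120586752 to 120587302, lay 4.75 kb past the gene end and had 13 tags (6.92 to 22.2), the smallest count listed, and a fold of 1.61. The median fold of the endogenous list was 1.57. A lower fold was listed for 66.0% of its peaks at the Klf2 value and 57.9% at the Tfcp2l1 value. The nearest endogenous peak to Tbx3 was 53.2 kb away and the nearest to Prdm14 337 kb away. A window of the same length held at least 1 endogenous peak in 12.8% of cases for Klf2 and 17.9% for Tbx3. For Prdm14 it was 18.7% and for Tfcp2l1 30.0%, so 0 was the usual count. The 1 peak at Klf2 was more than 87.2% of its windows held, and the 1 at Tfcp2l1 more than 70.0%. No endogenous peak touched a gene body or a start peak of the 4 genes. At a smallest count of 13 tags, weaker endogenous signal at the starts was not detectable in this list.

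Both endogenous members overlapped a biotin peak, where 18.8% of the endogenous list did. This rests on 2 peaks, with an exact interval of 15.8 to 100%, which holds 18.8%. Biotin peaks also covered more of these loci than of their chromosomes. The values were 41.1 against 9.93% at Klf2 and 13.5 against 6.12% at Tfcp2l1. From the other side, 2 of 44 biotin members, 4.55% (exact interval 0.555 to 15.5), overlapped an endogenous peak, against 1.28% of the biotin list. That share lies inside the interval, which counts neighbouring peaks as independent and is no test. At Klf2 the shared biotin peak, 74831868 to 74832777 with 48 tags and a fold of 4.65, met the endogenous one over 229 bp with summits 625 bp apart. At Tfcp2l1 the shared biotin peak, 120586281 to 120587418 with 71 tags and a fold of 5.01, contained all 551 bp of the endogenous one, with summits 286 bp apart. Neither of these biotin peaks was the strongest of its locus.

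The 20 kb limit cut through 1 biotin peak at Klf2 and 2 at Prdm14, all kept as members, and through 0 at Tbx3 and Tfcp2l1. Just inside it were biotin peaks 19.4 kb from Klf2 with 27 tags, 18.4 kb from Tbx3 with 48, 19.4 kb from Prdm14 with 31 and 18.6 kb from Tfcp2l1 with 53. Just outside were peaks at 22.5 kb with 41 tags, 21.3 kb with 144, 23.0 kb with 82 and 23.4 kb with 36. Other genes within 20 kb in GRCm38.p6 included Eps15l1 at Klf2, Clasp1 at Tfcp2l1 and the transcripts Tbx3os1 and Tbx3os2 at Tbx3, and peaks in the flanks were not divided among them.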

How the data were processed

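Each precipitation has its own deposited peak list, called on 1 library. Per the submitters' processing notes the build was mm9, and BWA 0.5.7 and also R 2.15.2 were used in steps not specified. No source used here names the peak caller or its control. Per the file headers, each deposited peak has a tag count (whole numbers, not scaled for depth), a linear fold ratio, a false discovery rate in percent, a score of 10 times −log10 p, a width and a summit. The score and the false discovery rate served no result here. Coordinates count from 1.

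Gene bodies (mm9) with 20 kb flanks were intersected with both lists (overlap of at least 1 bp). Coverage is the union of peaks clipped to the window, and tags are those of all peaks that touch it. Windows of equal length were laid from the locus outwards between the smallest and largest listed positions of the chromosome, without the locus. The orientation of Tbx3 and Prdm14 is textbook knowledge, that of Klf2 and Tfcp2l1 is from RefSeq. The window calculation was tested on simulated peaks. For each locus, the peaks named are those with the largest fold, most tags and largest width, those at the gene start, those shared with the other list, and those nearest the limit; others named were chosen after their values were seen. The members and lists were chosen with earlier results of these data known, although peaks entered by gene and distance alone. Alternatives covered flank, windows, peak strength and sharing. Python 3.11.15, numpy 2.4.6, pandas 2.3.3 and scipy 1.17.1 were used, with 1 library per group and no test.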

Additional observations from a re-analysis of the deposited data

How the results depend on the processing

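Across 29 results, 119 alternative values were computed. Of these, 59 lay within the interval of the value reported or within 1.5 times the count or ratio, and 60 lay outside. The number that changed direction was 0, but counts of peaks have no direction to change, so this is no sign of stability. The order of the loci did change with windows on all autosomes. The intervals are at 95% on the percent of windows, for example 92.7 to 94.5 for Klf2 by coverage over 3010 windows. They count adjacent windows as independent, so lying outside one is a description and no test. Below, values for Klf2, Tbx3, Prdm14 and Tfcp2l1 are the percent of windows with less coverage or fewer tags. With the gene body alone, coverage gave 97.5 at Klf2 and 94.96 at Tbx3, and tags gave 95.9, 99.1, 98.4 and 88.0. That setting left 2, 3, 3 and 7 biotin peaks and 0 endogenous peaks at each gene. With flanks of 10 kb, coverage gave 94.9 at Klf2 and 95.8 at Tbx3, and tags gave 94.3, 98.2 and 96.3 at Klf2, Tbx3 and Prdm14, with 7 biotin peaks at Klf2 and 6 at Prdm14. Flanks of 50 kb gave 91.5, 90.1 and 94.96 by coverage and 90.01, 93.5 and 94.5 by tags for the first 3 genes, with 25, 24, 20 and 18 biotin peaks.

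Windows within 5 Mb gave 90.2, 67.4, 100 and 84.3 by coverage, and 88.5, 85.9 and 100 by tags for the first 3 genes. Windows on all autosomes gave 95.6, 95.3, 91.6 and 79.7 by coverage and 94.0, 97.6, 94.1 and 77.9 by tags. Windows with a biotin peak gave 90.8, 89.9, 93.9 and 84.0 by coverage and 88.0, 95.5, 96.0 and 82.2 by tags. With folds at or above the list median, coverage gave 96.8, 97.3 and 89.0 at Tbx3, Prdm14 and Tfcp2l1, tags gave 97.4 at Tbx3 and 97.9 at Prdm14, and 7 biotin peaks were left at Tfcp2l1. Of the 2 shared biotin peaks, 1 was left where 50% of the shorter peak had to overlap and 0 with summits within 250 bp. Fewer peaks or shorter windows are built into these settings; otherwise the cause was not tested. No paired analysis was possible because each group has 1 library, and for the same reason no replicate could be left out. Unknown depth and the smallest listed counts limit what can be said of places without a peak.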
